A study of Mus musculus with 6 samples.

Results

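Genes of the neuronal cytoskeleton and of the synapse were followed in the cochleae of mouse embryos with and without Igf1, the gene of the secreted growth factor insulin-like growth factor 1. The group was a fixed list of 33 neuronal genes, and 32 of them had a probe set annotated to that gene alone, out of 12393 genes represented on the arrays. The exception was Pou4f1, a transcription factor gene of sensory neurons, which had no such probe set. Where a gene had several, the probe set with the highest mean over the 6 arrays stood for it, a choice that does not use the genotype. All 32 measured members lay above background, here the 95th percentile of the mean signals of 69 probe sets for odorant, vomeronasal and taste receptor genes (3.39 on the log2 scale).

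Wild type (Igf-1 +/+) and null (Igf-1 -/-) embryos came from matings of heterozygous mice on a C57BL/6J background and were taken at embryonic day 18.5. Each sample was RNA from 1 pool of 4 cochleae of 2 embryos, with the otic capsule kept and the vestibular part removed, and was hybridised to 1 Affymetrix array. There were 3 independent pools of each genotype, numbered replicates 1 to 3 in the labels. The labels do not give the sex of the embryos or the part of Igf1 that was disrupted, and in 1 of the label fields the null pools are written +/+ and wild type replicate 2 has a slightly later age than the rest. Titles and descriptions, which give the null pools as -/-, were followed. The p-values measure the spread between these pools, and precision is limited by there being 6 arrays.

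The first neurons of the auditory pathway lie in the spiral ganglion, inside the bony axis of the cochlea, and send a process to the hair cells and an axon to the brainstem. Their axons are built on tubulin and neurofilaments, and their terminals release transmitter through a fusion machinery of SNARE proteins, synaptotagmins and complexins. Sympathetic axons also enter the cochlea, and other cranial ganglia lie close to the otic capsule. Many of the genes described here are expressed in all of these neurons, so that their signal reports nervous tissue in general and does not by itself name a ganglion. In a pool of whole cochleae, fewer neurons and less RNA per neuron cannot be told apart.

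Igf1 signal was lower in each null array than in each wild type array at all 3 of its probe sets, with differences of -0.46, -0.99 and -0.55. Signal remained above background in the null arrays, at 10.46 to 10.72, 6.92 to 7.14 and 6.79 to 7.18 in the same order. None passed in limma fitted over all 22626 probe sets (adjusted p 0.887, 0.600 and 0.889, Benjamini-Hochberg). The correlation between arrays ran from 0.938 to 0.961 over probe sets, and no arrays held identical values. Values below are log2 signals after quantile normalization, each difference is null minus wild type, and levels of different genes are not compared because probe sets differ in brightness. Of measured markers of the tissue, 9 of 12 hair cell genes and 12 of 12 cartilage genes were above background. So were 9743 of all 12393 genes, and the hair cell count does not stand out from that share.

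The members varied widely between pools of 1 genotype. Wild type replicate 2 gave the highest signal of the 6 arrays for 31 of 32 members, where it was the highest for 18.9% of all genes and 19.1% of genes above background. Relative to the mean of the other wild type pools, members were between 1.48-fold and 5.27-fold higher in that pool, and 28 of 32 were at least 2-fold higher, against 8.29% of all genes and 3.27% of those above background. The median excess over members was 1.47 on the log2 scale, or 2.78-fold. The median over all genes was -0.0095, which quantile normalization holds near 0. Scg2 was the 1 member with its highest signal elsewhere, in null replicate 2.

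A pool score was taken as the median over the 32 members of each gene's signal minus its mean over the 6 arrays. Listed by replicate, the wild type scores were -0.54, 0.99 and -0.39, and the null scores were 0.06, 0.44 and -0.43. Wild type replicates 1 and 3 and null replicate 3 thus formed the low end, null replicates 1 and 2 lay between, and wild type replicate 2 stood apart at the top. That is also the pool to which 1 label field gives a slightly later age, and the part of age in its excess was not tested. The range of scores was 1.53 within the wild type and 0.87 within the null pools. Without wild type replicate 2 the wild type range was 0.165. The null range was 0.37 without null replicate 3 and 0.47 without null replicate 2. Over all genes the same score stayed between -0.003 and 0.026 in every array, a closeness to 0 that quantile normalization largely imposes.

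**Figure D1:**
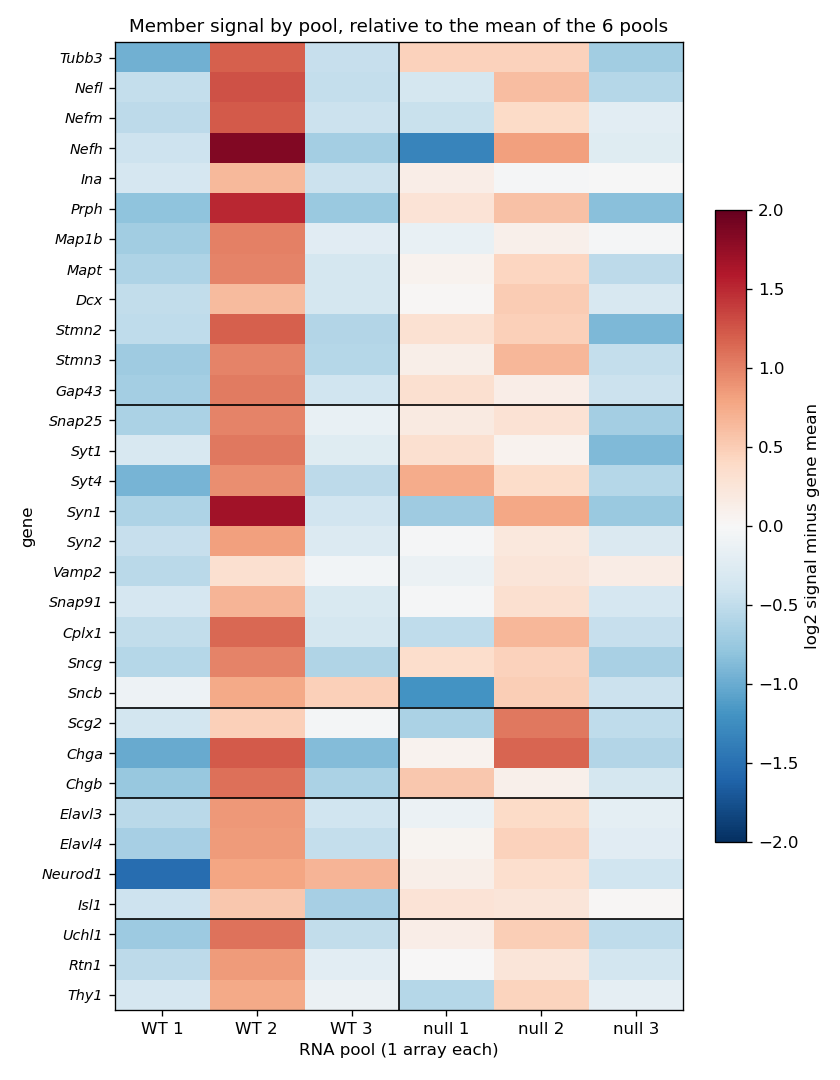
Log2 signal of each of the 32 members (rows, grouped by role with black lines) in each RNA pool (columns, 1 array each), as the difference from the gene's mean over the 6 pools. The wild type replicate 2 column is the warmest in 31 rows, null replicate 2 is mostly warm, and null replicate 1 is mixed, with Nefh and Sncb among its coldest cells.

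All 12 genes of the axonal cytoskeleton were highest in wild type replicate 2, with a median excess of 1.67 over the other wild type pools. Stmn3, which encodes a stathmin that binds tubulin, had signals of 9.92, 11.62 and 10.06 in the wild type pools and 10.74, 11.29 and 10.15 in the null pools, each in replicate order. Nefl, the light neurofilament subunit gene, had 9.64, 11.39 and 9.63 in the wild type and 9.76, 10.74 and 9.54 in the null pools. For both genes the groups overlapped, with 1 wild type pool above and the other wild type pools at or near the bottom of the null range.

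Tubb3, the neuronal beta-tubulin gene, was at 8.12, 10.27 and 8.61 in the wild type pools and at 9.54, 9.54 and 8.39 in the null pools. Prph encodes peripherin, an intermediate filament protein of peripheral neurons, and stood at 8.04, 10.34 and 8.10 against 9.11, 9.43 and 8.00. In these genes null replicates 1 and 2 were close to each other and null replicate 3 lay with the low wild type pools. Stmn2, Gap43 and Sncg, genes of a stathmin, a growth cone protein and gamma-synuclein, had the same order of the low and the raised pools. Their excess in wild type replicate 2 was 3.34-fold, 2.99-fold and 3.00-fold.

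The heavy neurofilament subunit gene Nefh departed from that order in 1 pool. Its signals were 6.13, 8.40 and 5.87 in the wild type and 5.23, 7.38 and 6.30 in the null pools, so that null replicate 1 was the lowest of the 6 arrays. Nefl and Nefm were also lower in null replicate 1 than in null replicate 2, by -0.97 and -0.82, while Tubb3 was level in these pools. Ina and Map1b, genes of alpha-internexin and of a microtubule-associated protein, varied little among the null pools, with ranges of 0.15 and 0.24, while their wild type ranges were 1.08 and 1.70. The tau gene Mapt and the doublecortin gene Dcx, whose products bind microtubules, were 2.80-fold and 2.07-fold higher in wild type replicate 2 than in the other wild type pools.

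All 10 genes of vesicle release and of the synucleins were likewise highest in wild type replicate 2, with a median excess of 1.35. Sncg had signals of 8.49, 10.06 and 8.46 in the wild type and 9.41, 9.53 and 8.42 in the null pools. Vamp2, the gene of the vesicle SNARE protein synaptobrevin 2, was at 8.11, 8.97 and 8.59 against 8.53, 8.89 and 8.80. Snap25, whose product is the SNARE partner on the plasma membrane, was at 6.61, 8.23 and 7.09 in the wild type and 7.42, 7.52 and 6.55 in the null pools. Snap25 thus followed Tubb3 and Prph across the pools, and Vamp2 differed by 0.62 between wild type replicate 2 and the other wild type pools, less than any member but Sncb.

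Syn1, the gene of synapsin I, a protein that tethers vesicles, stood at 5.53, 7.82 and 5.76 in the wild type and at 5.43, 6.91 and 5.40 in the null pools. Cplx1, the gene of complexin 1, was at 7.77, 9.41 and 7.91 against 7.76, 8.93 and 7.81. Both were raised in wild type replicate 2 and null replicate 2 only, and null replicate 1 lay with the low pools. The synaptotagmin gene Syt4 had another order, 6.13, 7.99 and 6.53 against 7.79, 7.42 and 6.49, with null replicate 1 almost as high as wild type replicate 2. Sncb, the beta-synuclein gene, was lowest in null replicate 1 (5.05), with 6.13, 6.99 and 6.72 in the wild type and 6.73 and 5.80 in null replicates 2 and 3. The calcium sensor gene Syt1, the clathrin adaptor gene Snap91 and the synapsin II gene Syn2 were 2.52-fold, 2.01-fold and 2.29-fold higher in wild type replicate 2 than in the other wild type pools.

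The granins, acidic proteins that fill secretory granules, split between the pools. Chgb was at 7.08, 8.93 and 7.21 in the wild type and 8.38, 7.94 and 7.48 in the null pools. Scg2, the secretogranin II gene, was at 6.59, 7.43 and 6.92 against 6.32, 8.01 and 6.45. Chga, the chromogranin A gene, was at 5.37, 7.61 and 5.52 against 6.45, 7.55 and 5.80. Null replicate 2 was therefore the highest array for Scg2 and close to wild type replicate 2 for Chga, while for Chgb it was below null replicate 1.

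Promoter sequence was compared among members because their signals moved together across pools. RefSeq promoter windows of assembly GRCm38.p6 were on hand for 22 of the 32 measured members, and the 250 bases before each annotated start were searched on both strands for 4 motifs. The cAMP response element TGACGTCA, the palindromic site of CREB factors, occurred in 3 of these 22 members (13.6%) and in 1.77% of 27025 genes. The GC box GGGCGG, a site of Sp factors, occurred in 15 of 22 (68.2%) and in 35.4% of genes. An E-box of the letters CAGCTG, a site type bound by proneural factors, occurred in 7 of 22 (31.8%) and in 14.7% of genes, and TATAAA in 4 of 22 (18.2%) and in 14.3%. Genes with several annotated starts had several windows, and a gene was counted when any of them held the motif. The 27025 genes were all annotated genes with a window, with a chromosome left out. They include genes not measured or not above background here, so the shares do not set the members against expressed genes. These shares were not tested, and a match is a description of letters only. The 3 windows with the response element are shown first, with it in capitals, because they set members of different pool order side by side. That of Elavl3, a neuronal RNA-binding protein gene, follows with its E-box and TATAAA in capitals. GC boxes are left in lower case. Positions count from the annotated start.
Scg2, chr1:79440037-79440144, minus strand, element at -68 to -61: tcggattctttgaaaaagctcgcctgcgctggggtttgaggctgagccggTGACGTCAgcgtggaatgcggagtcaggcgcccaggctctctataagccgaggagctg
Chgb, chr2:132781520-132781627, plus strand, element at -72 to -65: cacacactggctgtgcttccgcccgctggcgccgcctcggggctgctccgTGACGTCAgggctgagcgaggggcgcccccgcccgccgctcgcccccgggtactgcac
Syn1, chrX:20921020-20921127, minus strand, element at -159 to -152: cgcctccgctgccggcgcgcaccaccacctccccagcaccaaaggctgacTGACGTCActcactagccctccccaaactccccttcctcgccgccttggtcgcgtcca
Elavl3, chr9:22052024-22052116, minus strand, motifs from -43 to -28: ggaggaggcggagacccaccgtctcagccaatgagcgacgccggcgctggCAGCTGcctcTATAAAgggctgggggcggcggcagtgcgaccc

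The genes with the response element differed in the order of null replicates 1 and 2 but shared other orders. Signal in null replicate 1 minus that in null replicate 2 was -1.69 for Scg2 and -1.48 for Syn1, and 0.44 for Chgb. Null replicate 2 was above null replicate 3 in each, by 1.56 for Scg2, 1.51 for Syn1 and 0.45 for Chgb, as in nearly all members. In the wild type, replicate 2 was the highest and replicate 1 the lowest pool for each. Members without the element were not set beside them, and a link between the element and the pool order was not tested.

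All 4 measured genes of RNA-binding proteins and transcription factors were highest in wild type replicate 2, with a median excess of 1.27. Isl1, a LIM homeobox gene of sensory and autonomic neurons, was at 8.26, 9.20 and 8.01 in the wild type and 8.94, 8.91 and 8.68 in the null pools. Elavl4, which encodes a neuronal RNA-binding protein, was at 7.36, 8.87 and 7.54 against 8.07, 8.48 and 7.79. In both genes the 3 null pools lay above wild type replicates 1 and 3 and below wild type replicate 2. Elavl3, of the same family, was 2.51-fold higher in wild type replicate 2 than in the other wild type pools. Neurod1, a proneural transcription factor gene, was dim, and its lowest reading, 2.87 in wild type replicate 1, was below the background level, so its wild type range of 2.32 is not well determined.

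Among the other neuronal proteins, Uchl1, the gene of an abundant neuronal ubiquitin hydrolase, was at 9.13, 10.95 and 9.37 in the wild type and 9.99, 10.36 and 9.36 in the null pools. Rtn1, a reticulon gene of the endoplasmic reticulum, was at 8.38, 9.76 and 8.70 against 8.91, 9.14 and 8.54. Thy1, the gene of a surface glycoprotein of neurons, was lowest in null replicate 1 (6.72) and highest in wild type replicate 2 (8.04). Where members had further probe sets, 22 of these 26 were above background, and 20 of the 22 were also highest in wild type replicate 2. The exceptions were a second probe set of Neurod1, highest in wild type replicate 3, and of Syt4, highest in null replicate 1.

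The null pools separated the members into different orders. Signal was higher in null replicate 2 than in null replicate 3 for 31 of 32 members, with a median difference of 0.93, and Ina was the exception. Null replicate 1 was above null replicate 3 for 24 of 32, with a median difference of 0.33, and above null replicate 2 for 6 of 32. Those 6 were Chgb (0.44), Syt4 (0.37), Syt1 (0.24), Gap43 (0.18), Ina (0.15) and Isl1 (0.03). At the other end, 7 members were lower in null replicate 1 than in null replicate 2 by more than 1 log2 unit. They were Nefh (-2.15), Scg2 (-1.69), Sncb (-1.68), Syn1 (-1.48), Cplx1 (-1.17), Chga (-1.10) and Thy1 (-1.02). These sets were read from the values and were not tested.

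**Figure D2:**
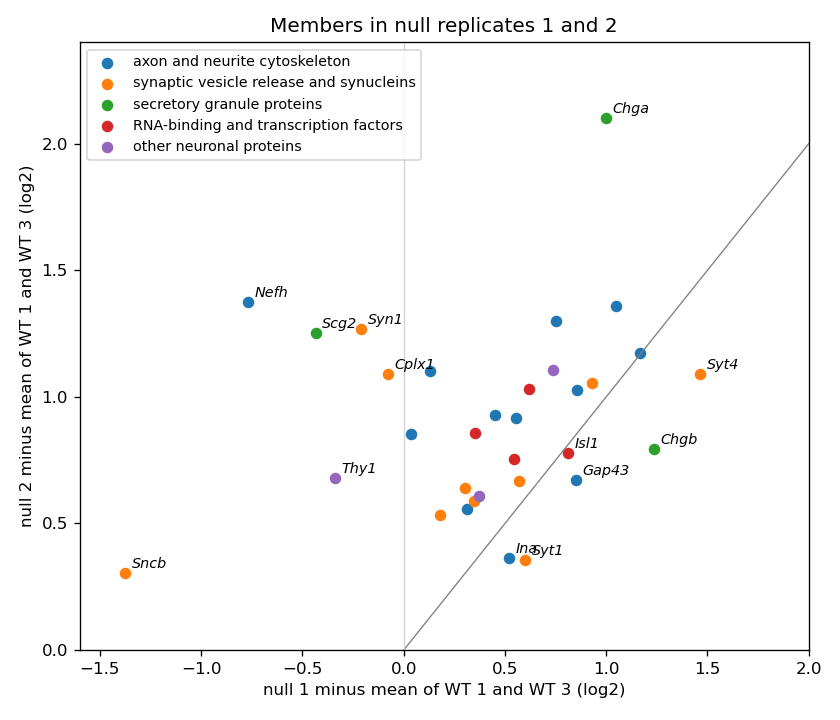
Each point is 1 of the 32 members, coloured by role, with its log2 signal in null replicate 1 (x axis) and null replicate 2 (y axis) minus its mean in wild type replicates 1 and 3. All 32 points lie above 0 on the y axis and 26 lie above 0 on the x axis, and the 7 members over 1 log2 unit above the diagonal and the 6 below it are named.

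Some markers of different kinds of neuron moved with different pools. Of 8 autonomic and chromaffin genes 6 were measured and 5 were above background, and the list scores were -0.42, 1.10 and -0.82 over the wild type pools and 1.13, -0.79 and -0.15 over the null pools. Th, the tyrosine hydroxylase gene of catecholamine synthesis, was at 4.94, 7.78 and 5.13 in the wild type and 6.97, 5.15 and 5.44 in the null pools. Phox2a, an autonomic homeobox gene, was at 5.74, 7.67 and 5.46 against 7.70, 5.42 and 6.03. Wild type replicate 2 and null replicate 1 were thus the high pools for both, and Dbh, the gene of the next enzyme after dopamine, had 5.51, 7.71 and 5.22 against 7.50, 5.22 and 6.24. The mean level of the list ran from 4.84 to 6.06 in the wild type and from 4.82 to 5.96 in the null pools, and the vesicular transporter gene Slc18a1 was not above background.

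Slc17a6, the vesicular glutamate transporter gene of spiral ganglion and other sensory neurons, was high in another null pool. Its signals were 5.99, 8.11 and 6.40 in the wild type and 6.67, 7.81 and 5.96 in the null pools. Tlx3, a homeobox gene of sensory neurons, was at 4.50, 6.13 and 4.77 against 4.63, 5.64 and 4.57. For both, wild type replicate 2 and null replicate 2 were the high pools, the order seen for Syn1 and Cplx1. The whole list of 16 measured genes of spiral ganglion neuron identity, 14 of them above background, varied less, with scores of -0.17, 0.14 and -0.11 in the wild type and -0.09, 0.20 and -0.10 in the null pools. Its mean level ran from 4.99 to 5.43 in the wild type and from 4.99 to 5.50 in the null pools. Of the 16 genes 4 were highest in wild type replicate 2, against 18.9% of all genes, and some had the opposite order. Gata3 was at 7.04, 6.65 and 7.08 against 6.98, 6.28 and 7.64, and Calb1 at 7.52, 7.07 and 7.24 against 7.69, 7.39 and 7.67. Both were lowest in replicate 2 of each genotype. Several genes of the list, such as Gata3 and Prox1, are also expressed outside the ganglion.

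Several pituitary hormone genes, though not all, were highest in null replicate 2. Gh, the growth hormone gene, was at 12.58 there, between 7.09 and 7.64 in the wild type pools, at 7.11 in null replicate 3 and at -5.60, below background, in null replicate 1. The corticotropin precursor gene Pomc was at 10.15 in null replicate 2 and between 5.98 and 6.16 in the wild type pools. Tshb, the thyrotropin beta subunit gene, was at 8.55 in null replicate 2 and between 2.74 and 3.86 in the other arrays. Lhb, the lutropin beta subunit gene, went the other way, at 4.33, 4.06 and 4.29 in the wild type and 3.73, 3.52 and 2.46 in the null pools, and the prolactin gene Prl was not above background. The list score was 3.85 in null replicate 2 and between -1.38 and 0.33 in the other 5 arrays, over 7 of 8 genes measured and 5 above background. Its mean level ran from 3.27 to 3.79 in the wild type and from 0.81 to 7.20 in the null pools. Pituitary cells also store granins, and the excess of null replicate 2 over null replicate 3 was 1.56 for Scg2, 1.75 for Chga and 0.45 for Chgb. The median of that excess over members was 0.93, and genes that are no granins reached 1.51 (Syn1) and 1.43 (Prph). The part of autonomic, sensory and pituitary tissue in the member values was not tested.

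**Figure D3:**
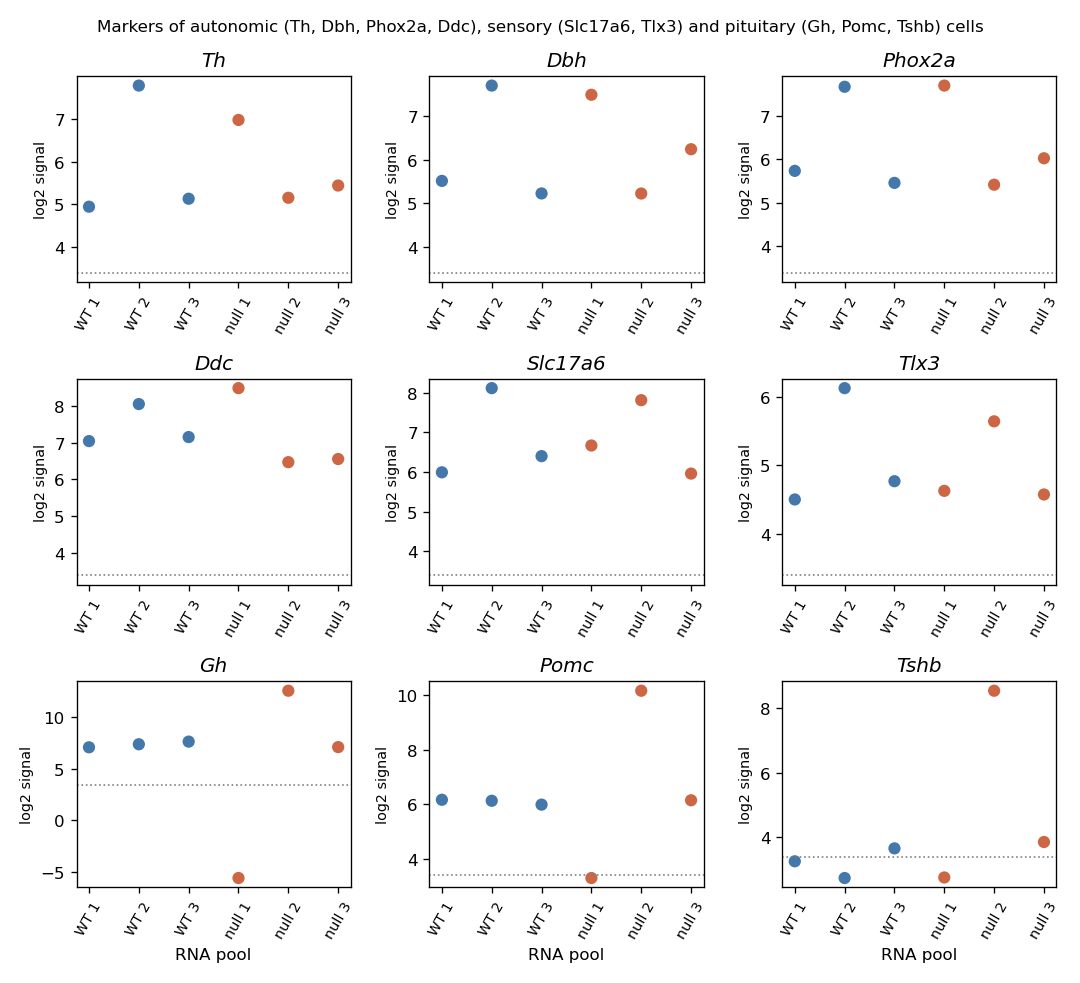
Log2 signal (y axis) of 9 marker genes in each RNA pool (x axis, 1 point per array, blue for wild type and orange for null), with the background level dotted. Th, Dbh, Phox2a and Ddc are highest in wild type replicate 2 and null replicate 1, Slc17a6 and Tlx3 in wild type replicate 2 and null replicate 2, and Gh, Pomc and Tshb in null replicate 2.

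Scores of nerve glia spanned a narrower range than those of the members. Over 13 of 16 measured Schwann and satellite cell genes, 12 of them above background, the score was -0.16, 0.32 and 0.00 in the wild type and -0.15, -0.00 and -0.20 in the null pools. Of the 13 genes 7 were highest in wild type replicate 2, against 18.9% of all genes, with a median excess of 0.25 over the other wild type pools. The mean level of the list ran from 7.19 to 7.70 in the wild type and from 7.14 to 7.24 in the null pools. Mbp, a myelin protein gene, was highest in wild type replicate 2 at 9.62, and Sox10, the lineage factor of these glia, ran from 8.07 to 8.71 over all 6 arrays. Of 12 measured brain markers 4 were above background (Gad1, Gad2, Neurod6 and Zic1), with scores from -0.59 to 0.24 over these 4 and from -0.92 to 0.29 over all 12, and the oligodendrocyte and astrocyte genes Olig2 and Gfap were not above background. The 3' minus 5' signal of beta-actin, a sign of RNA integrity, was lowest in wild type replicate 2 (0.71) and highest in null replicate 3 (1.08). That of Gapdh was 0.19, 0.32 and 0.25 in the wild type and 0.18, 0.35 and 0.52 in the null pools, so that wild type replicate 2 was not the lowest there. The part of RNA integrity in the pool differences was not tested.

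Genes outside the 33 but of the same machinery were compared over the same pools. Of 29 measured further genes of the axonal cytoskeleton 24 were highest in wild type replicate 2, against 18.9% of all genes, with a median excess of 1.23. Of 20 further presynaptic genes 18 were, with a median excess of 1.13. Stmn4, a neuronal stathmin gene, was at 5.42, 8.17 and 6.13 in the wild type and 7.22, 7.46 and 5.78 in the null pools. Syp, the synaptophysin gene of vesicle membranes, was at 6.42, 8.19 and 6.76 against 6.95, 7.68 and 6.75. Of 9 postsynaptic and adhesion genes 2 were highest in wild type replicate 2, near the 18.9% of all genes, and the median excess of the 9 was 0.36. The postsynaptic scores were -0.24, 0.21 and -0.01 in the wild type and -0.30, 0.12 and 0.21 in the null pools.

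**Figure D4:**
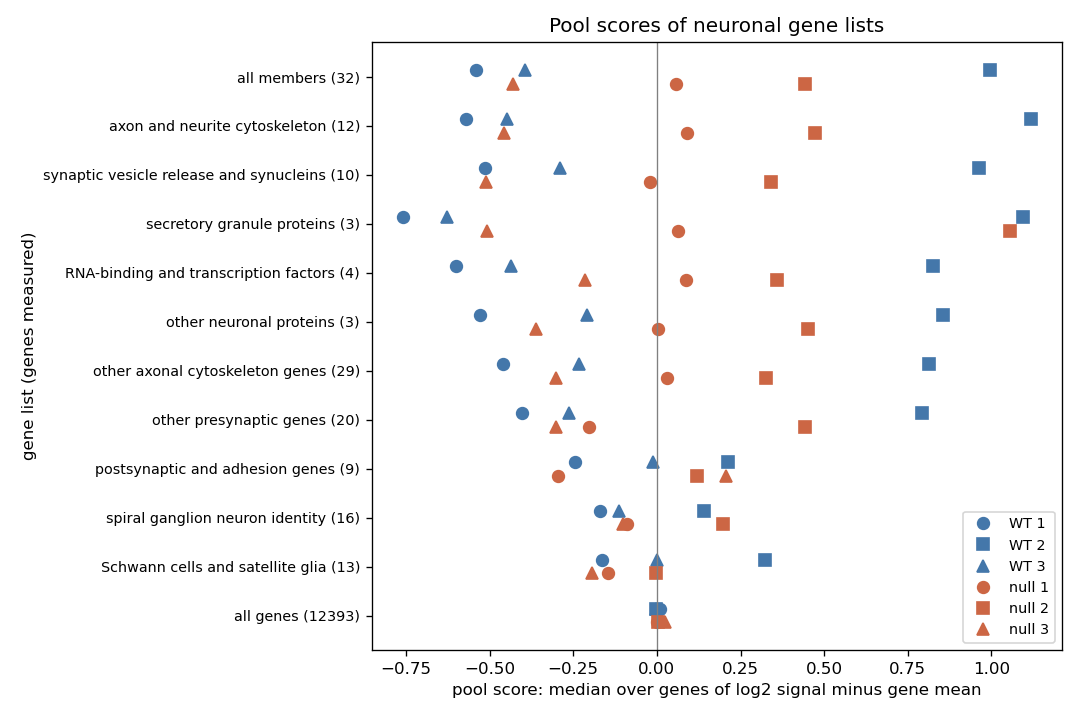
Pool scores (x axis, log2 units) of the members, of each role among them, of further neuronal lists, of glia and of all genes (y axis, number of genes measured in brackets), with 1 point per array, blue for wild type and orange for null. For all members wild type replicate 2 lies at 0.99 and the other wild type pools at -0.54 and -0.39, while glia span -0.20 to 0.32. All genes stay at 0, which quantile normalization largely imposes.

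The genotype comparison asked whether loss of Igf1 changed these genes. None of the 32 members passed an adjusted p of 0.05 in limma, where 0% of all genes passed, and adjusted p ran from 0.998 to 1.00 over the members. At an unadjusted p under 0.05 there were 0 of 32 members, against 4.94% of all genes, and in 0 of 32 did the arrays of the genotypes separate without overlap, against 10.6% of all genes (4.98% lower and 5.62% higher in the null pools). Signal was higher in the null pools for 16 and lower for 16, against 51.3% of all genes higher. The median difference over members was 4.4e-04, and over all genes 0.0062, which quantile normalization holds near 0.

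The size of the difference was below the wild type range in 32 of 32 members and below the null range in 31 of 32, with Isl1 the exception. A range over 3 single arrays tends to exceed a difference between means of 3 arrays even without an effect. These counts are therefore a description, and their share over all genes was not taken. The size of the difference had a median of 0.15 over members, and the median range among wild type pools was 1.63 and among null pools 0.98. Sncb had the largest difference, -0.75 ± 0.48 (SE), with means of 6.61 ± 0.44 (SD, n = 3) in the wild type and 5.86 ± 0.84 (SD, n = 3) in the null pools. Its 95% interval ran from -1.97 to 0.46, and a two-sided exact permutation test gave p = 0.3, where 0.1 is the smallest that 3 against 3 arrays allow. Chga had the largest positive difference, 0.43 ± 0.77 (SE), where the wild type mean was 6.17 ± 1.25 (SD, n = 3) and the null mean 6.60 ± 0.88 (SD, n = 3), and an exact permutation p of 0.6. Nefl differed by -0.21 ± 0.60 (SE), Stmn3 by 0.19 ± 0.56, Sncg by 0.11 ± 0.56, Vamp2 by 0.18 ± 0.25 and Uchl1 by 0.08 ± 0.56.

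The intervals were wide. The 95% interval of the difference included 1, or 2-fold higher in the null pools, for 24 of 32 members, and included -1, or 2-fold lower, for 26. The narrowest interval was that of Vamp2, from -0.45 to 0.81 around 0.18, and the widest that of Nefh, from -2.72 to 1.73 around -0.50. Isl1 differed by 0.36 ± 0.33 (SE), from a wild type mean of 8.49 ± 0.63 (SD, n = 3) to a null mean of 8.85 ± 0.14 (SD, n = 3). A missed threshold here does not show that the genotypes are alike.

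The direction of the members as a group turned with single pools, and Isl1 and Sncb were the only members whose sign was the same whichever single array was left out. Without wild type replicate 2, 31 of 32 members were higher in the null pools, with a median of 0.44, and Sncb was the exception. In that comparison Isl1 (0.71), Ina (0.42) and Elavl4 (0.66) had unadjusted p of 0.0082, 0.021 and 0.050 in limma, against 4.93% of all genes at an unadjusted p under 0.05. The smallest adjusted p of a member was then 0.835. The pool left out was the highest array for 31 of 32 members, so its omission raises their differences by construction. As the members moved together across pools, their directions and p-values there are not separate evidence of a genotype effect. Without wild type replicate 1, 2 of 32 were higher, with a median of -0.31, and without wild type replicate 3, 6 of 32 were, with -0.18. Without null replicate 2 the count was 6 of 32 (median -0.16) and without null replicate 3 it was 25 of 32 (0.17). Between 49.9% and 52.2% of all genes were higher in the null pools with single arrays left out.

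**Figure D5:**
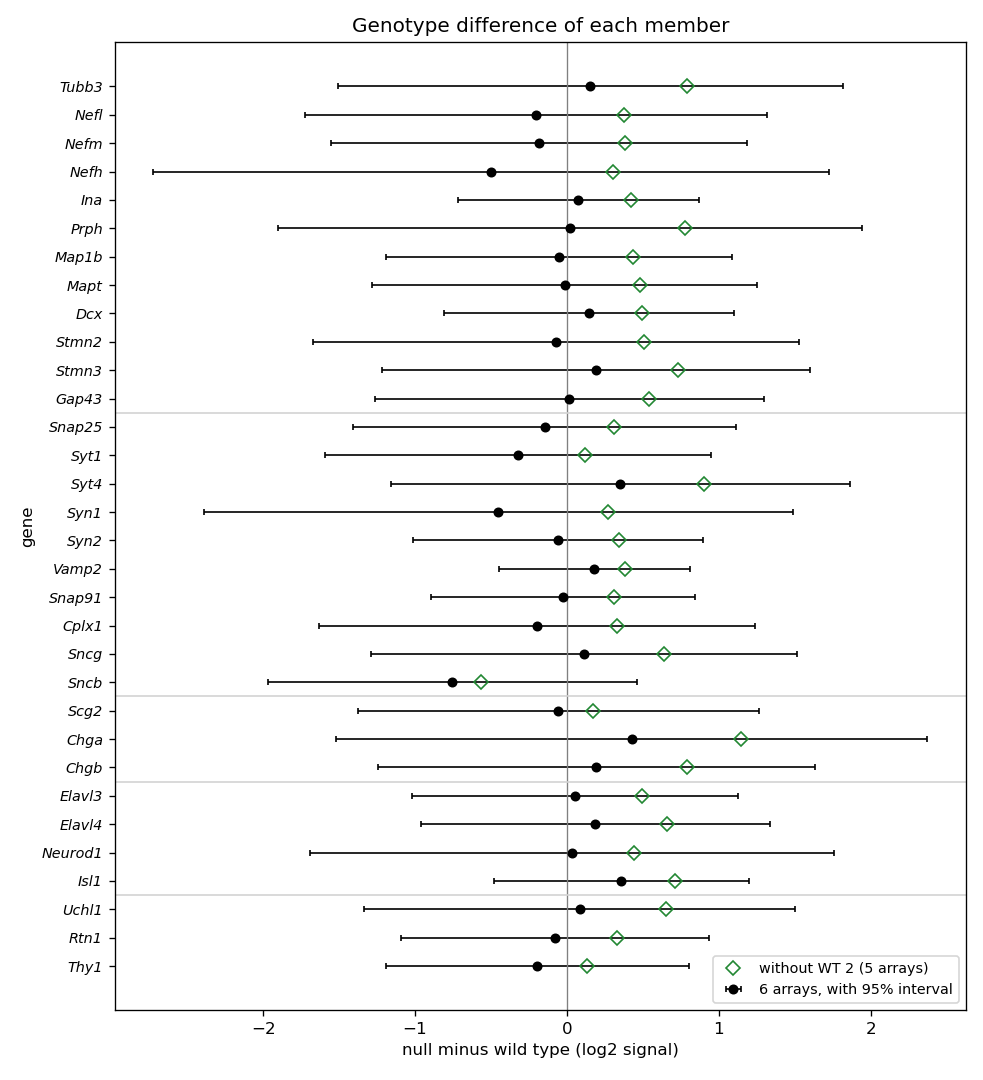
Difference between null and wild type pools (x axis, log2 signal) for each of the 32 members (y axis, grouped by role). Black points with bars give the estimate from 6 arrays and its 95% interval, which includes 0 for all 32, and green diamonds the estimate without wild type replicate 2, which is above 0 for 31 of 32. Leaving out that pool, the highest for 31 of 32 members, raises their estimates by construction.

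Sample titles also hold a number that the labels leave undefined: it is 14 in both replicates 1 and 16 in the rest. Within number 14, with 1 array of each genotype and no test, 26 of 32 members were higher in the null array, against 49.3% of all genes, with a median of 0.60. Within number 16, with 2 arrays of each, 4 of 32 were higher, against 51.3% of all genes, with a median of -0.31. There, 0 members had an unadjusted p under 0.05 in limma, against 4.96% of all genes.

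Genes of the wider pathway lists did not pass either. Of 29 further axonal cytoskeleton genes 15 were higher and 14 lower in the null pools, of 20 presynaptic genes 8 and 12, and of 9 postsynaptic and adhesion genes 4 and 5, with 0 past an adjusted p of 0.05 in limma in either direction. At an unadjusted p under 0.05 there were 1, 1 and 0 genes, against 4.94% of all genes. They were Cntn2, which was not above background, and Cplx2. Cplx2, a complexin gene, was at 6.17, 6.65 and 6.34 in the wild type and 5.66, 6.12 and 5.82 in the null pools (-0.52 ± 0.19 SE, adjusted p = 0.972). Its arrays did not overlap between the genotypes, as for 10.6% of all genes, whereas those of its relative Cplx1 did. By smallest p among genes above background, the others were Syt5 (-0.72) and Pclo (0.49) of the presynaptic list, Map2 (0.41), Dpysl4 (0.24) and Nrcam (0.24) of the cytoskeleton list, and Homer1 (0.36), Gphn (-0.20) and Camk2b (0.22) of the postsynaptic list, with adjusted p of 0.998 for each.

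The neural cell type lists were read in the same way. Ntrk2, the gene of the receptor for brain-derived neurotrophic factor, was at 8.42, 8.66 and 8.54 in the wild type and 8.04, 8.34 and 8.16 in the null pools (-0.36 ± 0.13 SE, adjusted p = 0.972 in limma). Its arrays did not overlap between the genotypes, as for 10.6% of all genes. Eya2 (0.22) and Calb1 (0.31) followed it in the spiral ganglion list. Of 13 glial genes 2 were higher and 11 lower in the null pools, where 51.3% of all genes were higher. Mal (-0.38), Egr2 (-0.32) and Mbp (-0.68) came first by p, with 0 at an unadjusted p under 0.05, against 4.94% of all genes. In the autonomic list Hand2 (0.29), Ddc (-0.25) and Dbh (0.17) came first, and in the brain list Gad2 (-0.32), Gad1 (0.12) and Neurod6 (0.21), with adjusted p in limma between 0.998 and 0.999 for these 6 genes.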

How the data were processed

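Each sample was RNA from a pool of cochleae on 1 Affymetrix array. The deposited table gives 1 log2 value for each of 22690 probe sets and array. The log base is inferred from the values, and the summarisation tool is not given in the sources used here. Array medians of the deposited values ran from 5.61 to 6.37, so arrays were quantile normalized after the 64 control probe sets were left out. Of 22626 probe sets, 20380 were annotated to 1 gene, 691 to several and 1555 to none in the platform annotation. Symbols were checked by Entrez identifier against RefSeq genes of GRCm38.p6 (20351 matched, 0 changed).

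The genotype difference was fitted by limma (version 3.58.1, under R 4.3.3), with genotype as the only term, two-sided p-values and Benjamini-Hochberg adjustment over 12393 genes. For the Igf1 probe sets the fit and the adjustment were over all 22626 probe sets. Groups came from the titles. On simulated data for this comparison with 12393 genes, the fit called 5.31% of 1.5-fold, 49.6% of 2-fold and 91.7% of 4-fold changes among genes above the median level. The changed genes were drawn at random from all genes, with noise independent between genes. The members moved together across pools and had a median SE of 0.51, so these shares do not give the power for the members. Alternatives comprised other normalizations, blocks, array weights (statmod 1.5.0), variance model, probe set choice, filters, an offset of 32 and leaving out each array. The members, their roles and the other lists were chosen with earlier results of these data known. Named were all members, Igf1 and up to 3 genes of each pathway and cell type list by smallest p among those above background, given here for the neural lists. Other genes outside the members (such as Th, Phox2a, Slc17a6, Tlx3, Gh, Pomc, Stmn4 and Syp), the sets of members that split the null pools, the promoter motifs and the count of members highest in 1 pool were chosen after their values were seen. A search for the REST site is not reported here.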

Additional observations from a re-analysis of the deposited data

How the results depend on the processing

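No member passed an adjusted p of 0.05 in limma under the alternatives run, and the smallest adjusted p of a member was 0.644, with array weights. The count of genes past that threshold was 0 with each alternative but 1, and ran from 0 to 1 with single arrays left out. The gene was Hsd17b3, no member, without null replicate 3. The count of members higher in the null pools, 16 of 32, was 9 with the values as deposited (24.2% of all genes higher there, and a median over all genes of -0.14), 29 with array weights, 26 within title number 14, 4 within title number 16 (leaving out the arrays of number 14) and from 2 to 31 with single arrays left out. The cause was not tested. No member had an unadjusted p under 0.05 with 6 arrays, 1 did with the replicate block (Sncb, adjusted p = 0.826 in limma), where 5.75% of all genes did, and 0 to 3 did with single arrays left out. The replicate block changed no other call. Deviations of same-numbered arrays correlated at 0.131, 0.285 and 0.028, and those of differently numbered arrays at -0.225 to 0.092. The numbers were not taken as pairs in the main fit because the labels do not say what they mark. With the replicate block the SE of Nefl was 0.20 in place of 0.60, while that of Ina was 0.31 either way. The width of some intervals thus depends on this choice. The range of wild type pool scores ran from 0.165 to 1.61 with single arrays left out. Members highest in wild type replicate 2, a count added after the data were seen, numbered from 29 (of 30 kept by the filter at the 40th percentile) to 32. Pool scores have no value under a block, array weights or a variance model, and none within title number 14, which has 1 array of each genotype. Syt1 and Neurod1 are limited by signal near background.

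The sign of many small differences turned. As deposited these were Ina -0.036, Prph -0.094, Gap43 -0.10, Sncg -0.0087, Elavl3 -0.098, Neurod1 -0.23, Uchl1 -0.023. With median centring they were Mapt 0.049, Stmn2 0.0058, Snap91 0.0069, Neurod1 -0.060. With array weights they were Nefl 0.31, Nefm 0.22, Nefh 0.29, Map1b 0.11, Mapt 0.31, Stmn2 0.39, Snap25 0.089, Syn1 0.17, Syn2 0.17, Snap91 0.24, Cplx1 0.28, Scg2 0.35, Neurod1 -0.12, Rtn1 0.14, Thy1 0.095. With the mean of a gene's probe sets they were Prph -0.29, Dcx -0.13, Syn2 0.24, Vamp2 -0.12, Elavl3 -0.14. With an offset of 32 it was Neurod1 -0.067. Within title number 16 they were Tubb3 -0.48, Ina -0.12, Prph -0.51, Dcx -0.045, Stmn3 -0.12, Gap43 -0.47, Syt4 -0.31, Sncg -0.29, Scg2 0.052, Chgb -0.36, Elavl3 -0.14, Elavl4 -0.073, Neurod1 -0.77, Uchl1 -0.30. Within title number 14, with no test, they were Nefl 0.13, Nefm 0.079, Map1b 0.56, Mapt 0.69, Stmn2 0.82, Snap25 0.81, Syt1 0.64, Syn2 0.44, Snap91 0.31, Rtn1 0.53. With single arrays left out, the sign turned in 30 of 32 members, with ranges of Tubb3 -0.28 to 0.79, Nefl -0.57 to 0.38, Nefm -0.49 to 0.38, Nefh -1.03 to 0.30, Ina -0.12 to 0.42, Prph -0.38 to 0.78, Map1b -0.42 to 0.44, Mapt -0.33 to 0.48, Dcx -0.073 to 0.49, Stmn2 -0.38 to 0.51, Stmn3 -0.12 to 0.73, Gap43 -0.32 to 0.54, Snap25 -0.50 to 0.31, Syt1 -0.56 to 0.12, Syt4 -0.025 to 0.91, Syn1 -0.95 to 0.27, Syn2 -0.31 to 0.34, Vamp2 -0.044 to 0.39, Snap91 -0.20 to 0.31, Cplx1 -0.58 to 0.33, Sncg -0.16 to 0.64, Scg2 -0.60 to 0.25, Chga -0.047 to 1.15, Chgb -0.14 to 0.79, Elavl3 -0.21 to 0.49, Elavl4 -0.093 to 0.66, Neurod1 -0.72 to 0.44, Uchl1 -0.26 to 0.65, Rtn1 -0.36 to 0.33, Thy1 -0.47 to 0.13.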

Other observations

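Skeletal muscle genes had an order of pools unlike that of the neuronal genes. All 9 measured muscle genes were above background, and their scores were 0.23, -0.97 and 0.73 over the wild type pools and 0.75, 0.18 and -0.91 over the null pools, each in replicate order. Wild type replicate 2 was thus the lowest pool for muscle and the highest for the neuronal members, while null replicate 3 was low for both. The cardiac and embryonic muscle actin gene Actc1 was at 11.85, 10.77 and 12.17 in the wild type and 12.30, 12.02 and 10.95 in the null pools, and the skeletal actin gene Acta1 at 11.89, 11.31 and 12.82 against 12.81, 12.36 and 11.14. Hair cell genes, by contrast, had scores between -0.27 and 0.26 over the 6 arrays. Muscle lies outside the cochlea, and its part in the member values was not tested.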
